A study of Mus musculus with 18 samples.

Results

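Livers of mice fed a high-fat diet with lycopene (HFD+LYC) were compared with livers of mice fed normal chow (control), by sequencing of poly(A) RNA from total RNA. The comparison rests on 6 of the 18 libraries of the series, 3 HFD+LYC and 3 control libraries chosen by their labels alone, and covers all 24,539 genes listed. All animals were male wild type C57BL/6 mice that started the diet at 8 weeks of age, ate it for 8 weeks and were 16 weeks old at sampling. The HFD+LYC and control groups differ by both the fat and the lycopene, and these cannot be told apart in this comparison. For that reason the 3 livers of mice fed the high-fat diet without lycopene (HFD), of the same sex, strain and age, are set beside the results. The other libraries held RNA of ribosome-nascent chain complexes (RNC), and those of the HFD+LYC and control diets are described at the end. The 3 libraries of a diet are biological replicates per the series' design text. The sources used here do not give the hour of sampling or whether the mice were fed or fasted.

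Lycopene is the red carotenoid of tomatoes, and the liver is a main site of its storage. Liver cells run a circadian clock in which the activators CLOCK, its relative NPAS2 and BMAL1 (gene Arntl) bind E-box DNA elements and switch on the genes of their own repressors, the PER and CRY proteins and CIART. Other clock-driven factors act through further elements: DBP, TEF and HLF activate and NFIL3 represses at D-boxes, while the REV-ERB receptors (Nr1d1, Nr1d2) repress at sites of their own. The liver also makes, stores and burns fat, and many genes of these routes follow the clock, meals and hormones.

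The HFD+LYC libraries held 6586080, 5806647 and 9136396 counted reads (replicates 1, 2 and 3) and the control libraries 9022252, 6500148 and 8659161, so 3 reads stood for 0.328 to 0.517 CPM (the reads of a gene scaled by library size) in a HFD+LYC library and 0.333 to 0.462 CPM in a control library. Levels below are CPM scaled by TMM library factors. HFD+LYC replicate 2 stood apart, with 189 genes at exactly 1 read, against 652 to 798 in the other 5 libraries, and reads from 13,791 genes, against 14,574 to 14,971. Its 10 most abundant genes took 7.68% of its reads, against 14.3% to 22.7% in the others. The livers carried their defining hepatocyte markers in every library. Albumin (Alb) stood at 22870.0, 9390.0 and 50300.0 CPM in HFD+LYC livers, against 76260.0, 17350.0 and 49790.0 CPM in control livers, and was low in HFD+LYC replicate 2 and in control replicate 2.

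Of 12,664 genes tested with edgeR's quasi-likelihood test, 701 (5.54%) passed a Benjamini-Hochberg adjusted p under 0.05 in HFD+LYC against control livers. Of these, 419 (3.31%) were higher and 282 (2.23%) were lower in HFD+LYC livers. The rises had a median log2 fold change of 1.81, 171 of them were at least 4-fold and 34 at least 16-fold. The falls had a median of -1.64, with 96 at least 4-fold and 13 at least 16-fold. The 3 HFD+LYC values lay entirely on one side of the 3 control values in 699 of the 701, and in 28% of all genes tested (14.3% higher, 13.7% lower). Protein-coding genes made up 402 of the rises and 265 of the falls, and long non-coding RNAs 12 and 13. Over all tested genes, 47.7% had a fitted change above 0 and 52.3% one below 0, and the median log2 fold change was -0.05.

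The number of calls depended on single libraries. Without control replicate 3, 59 genes were higher and 32 lower, and without control replicate 1, 132 and 95. Without HFD+LYC replicate 1 there were 180 higher and 56 lower, a share of 76.3% higher among the calls, against 59.8% with all libraries. Without HFD+LYC replicate 2 there were 181 and 90. The number of falls was also 161 without HFD+LYC replicate 3 and 176 without HFD replicate 2. The calls kept in all 9 fits that each left out 1 library were 56 rises and 28 falls, among them Mfsd2a, Ciart, Dbp, Usp2, Rgs16, Lpin1, Elovl6 and Fkbp5 on the higher side and Npas2, Avpr1a, Cyp3a59, Dtx4 and Spp1 on the lower side.

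**Figure D1:**
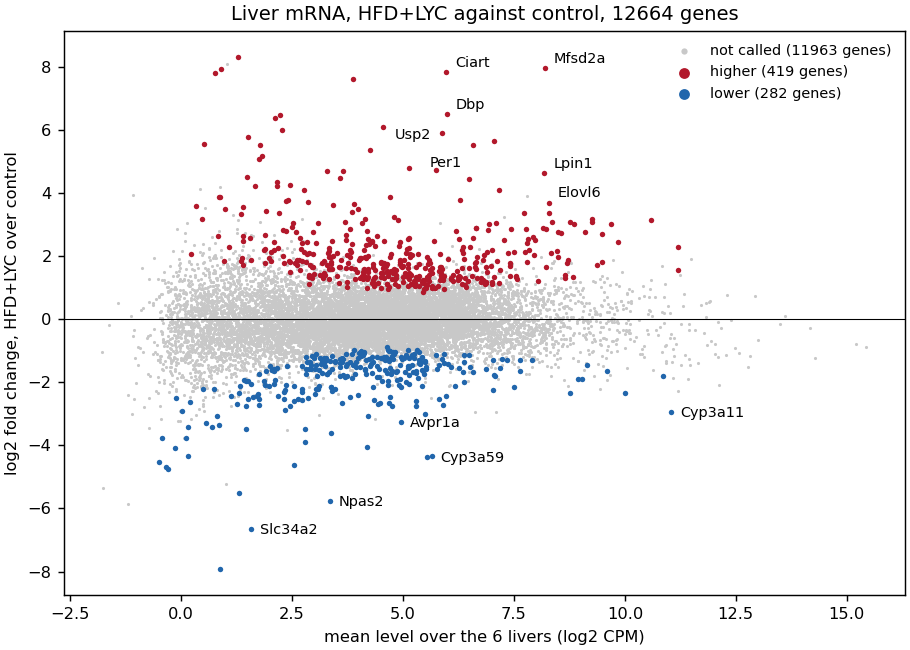
Fitted log2 fold change of HFD+LYC over control (vertical axis) against the mean level over the 6 livers in log2 CPM (horizontal axis), 1 point for each of 12,664 genes. The 419 genes called higher are red, the 282 called lower are blue and the others grey; the fitted changes of genes with 3 or fewer reads in one group, such as Slc34a2, are not bounds.

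The promoters of the 4 called clock genes with the smallest p are shown first, since clock factors act through short promoter elements. The sequences run from 250 bases before to 50 bases after the start of the transcript, 5′ to 3′ on the gene's strand, from RefSeq on GRCm38.p6. Capitals mark E-boxes (CACGTG) and D-boxes (TTATGTAA or TTACGTAA, each searched on both strands; neither D-box overlaps the E-box). Dbp and Ciart rose, Npas2 fell and Per3 rose in HFD+LYC livers.
Dbp (chr7:45704997-45705296, plus strand): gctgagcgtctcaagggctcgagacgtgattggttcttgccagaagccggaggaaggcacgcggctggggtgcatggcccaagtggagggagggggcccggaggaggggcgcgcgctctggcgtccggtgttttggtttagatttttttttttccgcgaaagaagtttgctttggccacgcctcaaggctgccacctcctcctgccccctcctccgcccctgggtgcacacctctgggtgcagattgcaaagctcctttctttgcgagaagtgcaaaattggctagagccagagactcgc
Ciart (chr3:95882179-95882478, minus strand): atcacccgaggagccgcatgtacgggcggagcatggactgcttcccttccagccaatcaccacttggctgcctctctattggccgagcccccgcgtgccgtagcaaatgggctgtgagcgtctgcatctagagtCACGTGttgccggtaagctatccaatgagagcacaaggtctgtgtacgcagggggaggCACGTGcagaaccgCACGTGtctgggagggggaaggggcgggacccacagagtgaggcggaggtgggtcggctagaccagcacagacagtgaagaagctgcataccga
Npas2 (chr1:39194022-39194321, plus strand): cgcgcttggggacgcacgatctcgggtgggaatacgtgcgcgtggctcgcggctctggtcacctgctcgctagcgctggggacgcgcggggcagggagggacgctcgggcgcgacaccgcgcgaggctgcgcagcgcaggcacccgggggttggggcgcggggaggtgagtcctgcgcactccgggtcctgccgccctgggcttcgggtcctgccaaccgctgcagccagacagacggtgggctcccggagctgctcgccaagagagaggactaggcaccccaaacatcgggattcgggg
Per3 (chr4:151044616-151044915, minus strand): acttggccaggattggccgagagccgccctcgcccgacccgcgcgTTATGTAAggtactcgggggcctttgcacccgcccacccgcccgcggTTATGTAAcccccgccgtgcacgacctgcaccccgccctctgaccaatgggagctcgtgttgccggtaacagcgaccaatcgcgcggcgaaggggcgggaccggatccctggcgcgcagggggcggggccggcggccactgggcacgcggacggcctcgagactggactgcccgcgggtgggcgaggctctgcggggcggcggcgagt

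Ciart had 3 E-boxes, which begin 116, 58 and 44 bases before the start, and Per3 had 2 D-boxes, 205 and 158 bases before it. The windows of Dbp and Npas2 held neither motif. Of the 16 clock genes with a promoter in the table, Bhlhe41, Ciart, Cry1, Per1 and Tef held an E-box and Per3 held a D-box. Over the called genes with a promoter in the table, an E-box stood in 14% of 336 genes called higher and 10.1% of 227 called lower, beside 11.7% of all 10,137 tested genes and 7.15% of the 32,851 promoters. A D-box stood in 2.08% of the genes called higher and 0.881% of those called lower, beside 0.927% of tested genes and 1.06% of promoters. A gene counted if any of its promoters held the motif. The shares of promoters count each promoter singly and include those of untested genes, so they are not comparable with the shares of genes. All these shares are descriptions, and a match is not a site of binding.

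The repressors of the clock were higher in HFD+LYC livers. Of 8 repressor genes 6 rose, 0 fell and the median log2 fold change was 3.01, against -0.05 over all genes. Ciart, which represses the CLOCK-BMAL1 pair, stood at 147, 150.2 and 79.1 CPM in HFD+LYC livers and 1.14, 2.85 and 0.296 CPM in HFD livers, against 0.657, 0.551 and 0.381 CPM in control livers. Every HFD+LYC liver was far above every other liver, and the HFD values overlapped the control values (log2 fold change 7.85, SE 0.68, adjusted p = 0.000334; located on chromosome 3 between 95878500 and 95882257). The period gene Per1 stood at 208, 195 and 158 CPM in HFD+LYC livers, against 1.05, 8.13 and 3.05 CPM in control livers. Its HFD+LYC values lay close together, while the control values spread widely at a low level (log2 fold change 5.52, SE 1.01, adjusted p = 0.0134). Per2 stood at 425, 393 and 341 CPM in HFD+LYC livers, against 12, 57.7 and 42.4 CPM in control livers, again with no overlap (log2 fold change 3.37, SE 0.64, adjusted p = 0.0143). Per3 stood at 88.9, 154 and 69 CPM in HFD+LYC livers, against 1.84, 5.65 and 4.06 CPM in control livers (log2 fold change 4.75, SE 0.62, adjusted p = 0.00309), and its HFD+LYC replicate 2 was the highest.

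The cryptochrome Cry2 stood at 55, 47.3 and 39.3 CPM in HFD+LYC livers, against 15.6, 24.7 and 27.3 CPM in control livers. That rise was small and its groups did not overlap (log2 fold change 1.06, SE 0.28, adjusted p = 0.0478). Bhlhe41, a repressor that binds E-boxes, stood at 7.96, 3.39 and 2.32 CPM in HFD+LYC livers, against 0.788, 0.965 and 0.381 CPM in control livers (log2 fold change 2.65, SE 0.68, adjusted p = 0.0437). The other cryptochrome, Cry1, at 14.3, 14 and 15.6 CPM in HFD+LYC and 15.2, 16.7 and 18.7 CPM in control livers, and Bhlhe40 were not called (log2 fold changes -0.20 and 0.39, adjusted p = 0.739 and 0.656). Leaving out control replicate 3 left 2 of the 8 called, Ciart and Per3, and Per1 and Per2 had adjusted p = 0.0775 and 0.0768. Bhlhe41 kept its call in 3 and Cry2 in 1 of the 9 fits without 1 library, with a highest adjusted p of 0.185 and 0.157.

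All 3 activators fell, with a median log2 fold change of -2.66. Npas2 stood at 0, 0.815 and 0.244 CPM in HFD+LYC livers and 10.4, 3.76 and 3.16 CPM in HFD livers, against 20.1, 24.5 and 15.6 CPM in control livers. It had no read in HFD+LYC replicate 1, and the HFD livers lay between the other groups (log2 fold change -5.75, SE 0.73, adjusted p = 0.00309; located on chromosome 1 between 39193702 and 39363240). Arntl, which encodes BMAL1, stood at 10.2, 2.99 and 5.36 CPM in HFD+LYC livers and 16.2, 7.63 and 11.9 CPM in HFD livers, against 23.2, 54.2 and 39.1 CPM in control livers. Its highest HFD+LYC value was below its lowest control value, and the HFD values overlapped those of HFD+LYC (log2 fold change -2.66, SE 0.48, adjusted p = 0.0124). Clock stood at 16.8, 20.9 and 17.3 CPM in HFD+LYC livers and 49.2, 40.4 and 53.4 CPM in HFD livers, against 50, 48 and 59.2 CPM in control livers, so the HFD+LYC livers alone were low (log2 fold change -1.51, SE 0.25, adjusted p = 0.00818). When control replicate 3 was left out, Arntl and Clock had adjusted p = 0.0553 and 0.0545, and Npas2 kept its call.

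Among the D-box factors the activators Dbp and Tef rose, and Hlf and the repressor Nfil3 were not called. Dbp stood at 163, 114 and 100.1 CPM in HFD+LYC livers and 11.1, 33.6 and 22.2 CPM in HFD livers, against 1.05, 1.52 and 1.52 CPM in control livers. The 3 diets did not overlap, with HFD between the others (log2 fold change 6.51, SE 0.50, adjusted p = 0.00016; located on chromosome 7 between 45705100 and 45710203). The Dbp locus overlaps Sphk2, and because the sources used here do not state strand use, reads of the overlap may belong to either gene. Tef stood at 477, 654 and 368 CPM in HFD+LYC livers and 119.8, 203 and 64.2 CPM in HFD livers, against 48.5, 80.8 and 69.8 CPM in control livers (log2 fold change 2.91, SE 0.47, adjusted p = 0.00742; adjusted p = 0.0552 without control replicate 3). Hlf was at 32.4 ± 11.5 CPM in HFD+LYC livers and 29 ± 4.98 CPM in control livers (SD, n = 3; adjusted p = 0.809). Nfil3 was at 70.4 ± 30.4 CPM in HFD+LYC livers and 69.5 ± 31.2 CPM in control livers (SD, n = 3; adjusted p = 0.983), and its groups overlapped widely.

 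The REV-ERB genes, whose proteins repress Arntl, were not called. Nr1d1 was at 154, 91.4 and 72 CPM in HFD+LYC livers, against 25.2, 43.3 and 80.1 CPM in control livers, and its groups overlapped (adjusted p = 0.147; its locus overlaps Thra). Nr1d2 was at 138, 201 and 112 CPM in HFD+LYC livers, against 40.4, 79.2 and 76.9 CPM in control livers (adjusted p = 0.0832), with no overlap. Rora had a log2 fold change of -0.49 (adjusted p = 0.379).

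Liver genes known to be rhythmic under the clock were often higher. Of 27 such outputs 14 rose and 1 fell, the other 12 missed the threshold, and the median was 1.36. Usp2, a deubiquitinase, stood at 141, 109.7 and 94.8 CPM in HFD+LYC livers and 1.76, 4.1 and 1.28 CPM in HFD livers, against 1.18, 3.03 and 1.52 CPM in control livers. The HFD values overlapped the control values (log2 fold change 5.91, SE 0.51, adjusted p = 0.000334). Rgs16, which shortens G-protein signals, stood at 165, 213 and 403 CPM in HFD+LYC livers and 22.1, 32.8 and 14.5 CPM in HFD livers, against 1.97, 6.89 and 6.73 CPM in control livers (log2 fold change 5.64, SE 0.60, adjusted p = 0.000958). Upp2, a uridine phosphorylase, stood at 838, 1249 and 809 CPM in HFD+LYC livers, against 132, 153 and 139 CPM in control livers (log2 fold change 2.77, SE 0.38, adjusted p = 0.00346). Coq10b, a coenzyme Q binding protein, stood at 110.1, 75.1 and 79.7 CPM in HFD+LYC livers, against 12.3, 22.3 and 13.1 CPM in control livers (log2 fold change 2.47, SE 0.33, adjusted p = 0.00337). In these 4 genes the groups were well apart, and each kept its call without any single library.

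The electron donor of microsomal P450 enzymes, Por, stood at 488, 739 and 671 CPM in HFD+LYC livers, against 81.4, 94.1 and 103 CPM in control livers (log2 fold change 2.77, SE 0.39, adjusted p = 0.00399). The one that fell was Dtx4, an E3 ubiquitin ligase, at 7.52, 7.6 and 5.85 CPM in HFD+LYC livers, against 33.6, 67.2 and 40 CPM in control livers (log2 fold change -2.75, SE 0.37, adjusted p = 0.00341). The remaining called outputs were Mthfd1l (log2 fold change 3.88), Alas1, the first enzyme of heme synthesis (3.18), Tsku (3.10), the cell cycle kinase Wee1 (2.92), the ganglioside synthase St3gal5 (2.85), Cys1 (2.49), Tspan4 (1.36), the NAD salvage enzyme Nampt (1.33) and the lipase Pnpla2 (1.11). Leaving out control replicate 3 left 9 outputs called higher and 1 lower.

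**Figure D2:**
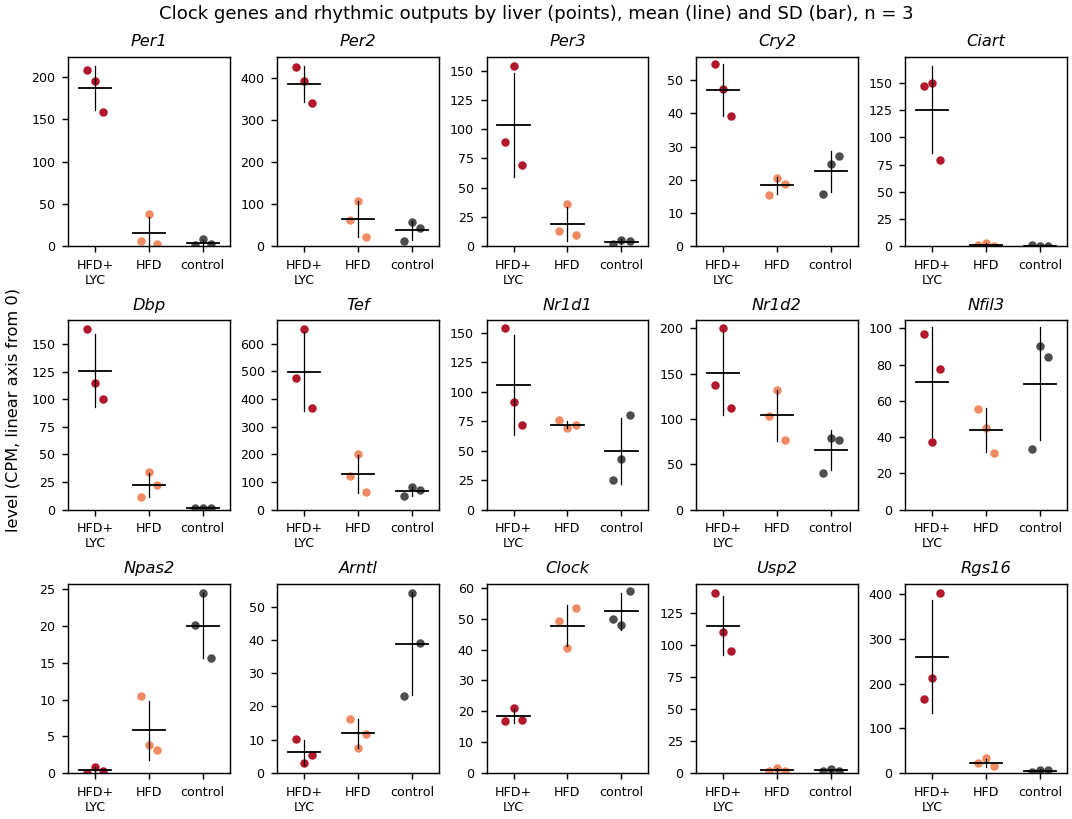
Level in CPM (vertical axes, linear from 0) of 15 clock genes and rhythmic outputs in each liver of the HFD+LYC, HFD and control diets; points are livers, the line is the mean and the bar the SD (n = 3). Ciart, Usp2 and Per1 are near 0 in control livers and at 79.1 to 208 CPM in HFD+LYC livers, while Npas2, Arntl and Clock have their lowest means in HFD+LYC livers.

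Outside the clock, one of the largest rises was that of Mfsd2a, a transporter of lysophosphatidylcholine. It stood at 404, 849 and 496 CPM in HFD+LYC livers and 159, 291 and 111 CPM in HFD livers, against 3.02, 1.93 and 2.03 CPM in control livers, so both high-fat groups were far above control (log2 fold change 7.96, SE 0.59, adjusted p = 0.00016; located on chromosome 4 between 122946850 and 122961194). Several other large changes concerned genes with almost no reads in one diet. Cyp2b10, a drug-metabolizing P450, had no read in control livers and 3.1, 2.04 and 5.12 CPM in HFD+LYC livers, at least 26.5-fold higher with the control livers together counted as 3 reads (adjusted p = 0.00819). The growth factor gene Fgf9 was at least 28.8-fold and the non-coding 1810053B23Rik at least 37.3-fold higher on the same basis. Ppp1r3g, a glycogen-targeting subunit of a protein phosphatase, stood at 7.37, 56.6 and 23.5 CPM in HFD+LYC livers, against 0.131, 0 and 0.254 CPM in control livers, a ratio of 224 with a 95% counting interval of 76.3 to 1089 (adjusted p = 0.00844). Counting intervals and floors cover counting error only.

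Aqp7, a glycerol channel, stood at 4.27, 20.1 and 1.58 CPM in HFD+LYC livers, against 0.263, 0 and 0 CPM in control livers, a ratio of 96.7 (95% counting interval 26.4 to 804), and its HFD+LYC replicate 2 was far above the other livers. Myoz3, a protein of the muscle Z-disc, stood at 4.72, 21 and 2.07 CPM in HFD+LYC livers, against 0.263, 0 and 0 CPM in control livers, with the same liver highest. The pseudogene Gm15645 stood at 6.78, 14.5 and 7.31 CPM in HFD+LYC livers, against 0.131, 0.276 and 0 CPM in control livers. Rmi2, a partner of the BLM helicase, stood at 5.31, 6.52 and 5.0 CPM in HFD+LYC livers, against 0.131, 0 and 0.127 CPM in control livers. In all 4 genes every HFD+LYC liver was above every control liver, which the rule that named them required. Gm15645 kept its call without any single library. Aqp7 and Myoz3 had adjusted p = 0.0567 and 0.0515 without HFD+LYC replicate 2 and 0.053 and 0.058 without control replicate 1. On leaving out control replicate 1 or 3, 1810053B23Rik lost its call (highest adjusted p 0.073), and Rmi2 had adjusted p = 0.055 and 0.0776. The calls of Fgf9 and Ppp1r3g were lost without control replicate 3 (adjusted p = 0.0694 and 0.0541), as were those of Aqp7 and Myoz3 (0.0952 and 0.105).

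The largest falls included membrane carriers and drug-metabolizing enzymes. Slc34a2, a phosphate carrier, stood at 0, 0 and 0.122 CPM in HFD+LYC livers and 0.93, 1.02 and 0.889 CPM in HFD livers, against 5.78, 6.34 and 5.71 CPM in control livers, and 1 read in all HFD+LYC livers against 135 in control livers set the ratio (132.6-fold lower, 95% counting interval 23.4 to 5277; adjusted p = 0.000958). Slc41a2, a magnesium carrier, stood at 2.95, 0.543 and 2.68 CPM in HFD+LYC livers, against 28.5, 25.4 and 49.5 CPM in control livers (log2 fold change -4.06, SE 0.54, adjusted p = 0.00343). The formin Fmn2 had no read in HFD+LYC livers and 1.84, 6.34 and 2.92 CPM in control livers, at least 27.2-fold lower with the HFD+LYC livers together counted as 3 reads (adjusted p = 0.0213). Loxl4, an enzyme that cross-links collagen, stood at 0.884, 2.31 and 1.46 CPM in HFD+LYC livers and 3.93, 1.25 and 3.36 CPM in HFD livers, against 12.7, 29.6 and 15.1 CPM in control livers, and both high-fat groups were below control (log2 fold change -3.61, SE 0.53, adjusted p = 0.00525). Fmn2 lost its call without control replicate 3 or HFD+LYC replicate 1 or 2, with a highest adjusted p of 0.073, and the other 3 genes kept theirs throughout.

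Further falls among the 15 largest were the transcribed pseudogene Gm10319 (log2 fold change -4.37), the non-coding Gm11266 (-3.47) and 3930402G23Rik, and the zinc finger genes Zbtb7c (-3.90), Zfp941 and Zbed6 (-3.48), with Adamdec1, a protease-like secreted protein (-3.43). Zbed6 lies within Zc3h11a, so its reads cannot be assigned with certainty. Gm10319 and Gm11266 kept their calls without any single library. The others kept theirs in 5 (3930402G23Rik), 5 (Zbtb7c), 2 (Zfp941), 4 (Zbed6) and 2 (Adamdec1) of 9 such fits, with a highest adjusted p between 0.0838 and 0.156.

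**Figure D3:**
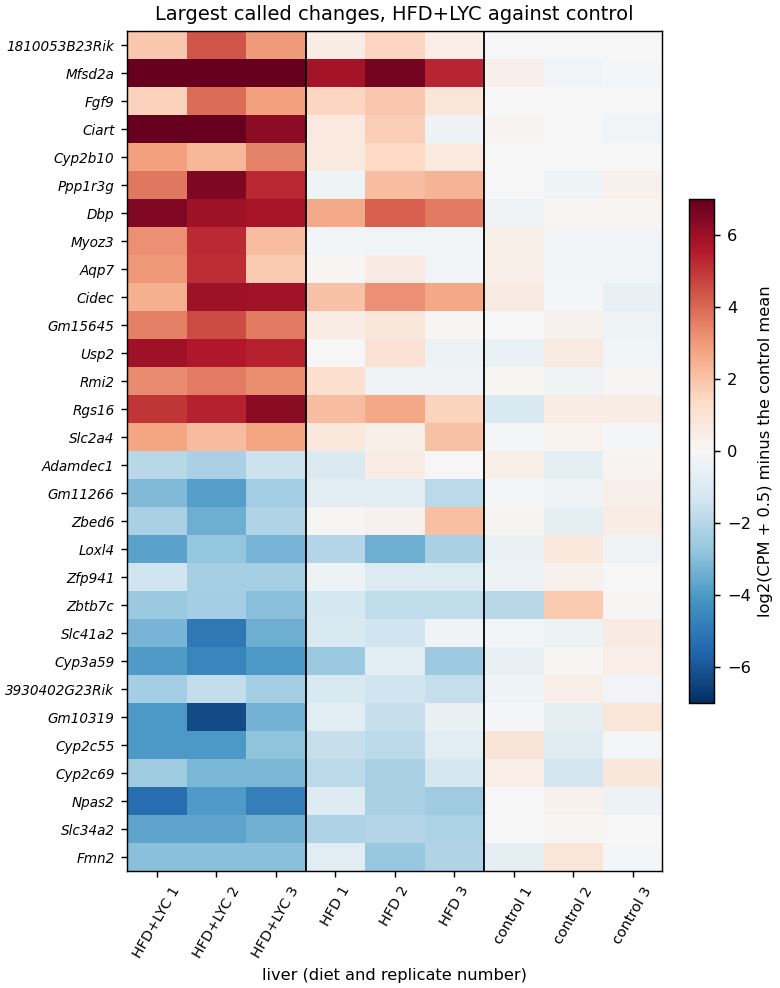
Level of the 15 largest called rises (upper rows) and 15 largest called falls (lower rows) in each HFD+LYC, HFD and control liver, as log2(CPM + 0.5) minus the mean of the control livers (colour scale from -7 to 7, red higher, blue lower). The pseudocount of 0.5 understates the change of genes with few reads. The rises are red in all 3 HFD+LYC livers, since genes were chosen among calls without overlap. The Mfsd2a, Dbp, Cidec and Rgs16 rows are among those that are red in the HFD livers as well.

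Genes that build fatty acids and triglycerides were in part higher in HFD+LYC livers: 5 of 25 rose, 0 fell and the median log2 fold change was 0.69. Lpin1, a phosphatidate phosphatase that makes diacylglycerol, stood at 376, 744 and 556 CPM in HFD+LYC livers and 48.9, 82.9 and 48.7 CPM in HFD livers, against 28.1, 22.2 and 16.6 CPM in control livers. The HFD livers lay between the other groups (log2 fold change 4.65, SE 0.44, adjusted p = 0.000398; located on chromosome 12 between 16535669 and 16653903). Its relative Lpin2 stood at 973, 1735 and 1022 CPM in HFD+LYC livers, against 123, 203 and 244 CPM in control livers (log2 fold change 2.71, SE 0.49, adjusted p = 0.0134). Elovl6, a fatty acid elongase, stood at 517, 612 and 613 CPM in HFD+LYC livers and 95.8, 122 and 169.9 CPM in HFD livers, against 43.6, 29.9 and 60.9 CPM in control livers, and its HFD+LYC values were close to each other (log2 fold change 3.70, SE 0.40, adjusted p = 0.000958; located on chromosome 3 between 129532386 and 129638495). Thrsp, a promoter of lipid synthesis also called Spot 14, stood at 1361, 1221 and 1845 CPM in HFD+LYC livers, against 302, 122 and 117 CPM in control livers (log2 fold change 3.03, SE 0.50, adjusted p = 0.00907). The fifth was Dgat1, which adds the last acyl chain of a triglyceride (log2 fold change 1.22, SE 0.26, adjusted p = 0.0234). Leaving out control replicate 3 left 2 of the 25 called and leaving out control replicate 1 left 3. In the first case Lpin2 and Thrsp had adjusted p = 0.0627 and 0.0691. In the second case Lpin2 had adjusted p = 0.0545.

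Of 24 genes of lipid droplets and fatty acid uptake 8 rose and 0 fell, with a median of 0.64; Mfsd2a, given above, is among the 8. Cidec, which lets droplets fuse, stood at 5.75, 68 and 65.3 CPM in HFD+LYC livers and 4.13, 9.68 and 6.72 CPM in HFD livers, against 1.18, 0.551 and 0.254 CPM in control livers. HFD+LYC replicate 1 was far below the other HFD+LYC livers, within the HFD values and above all control livers (log2 fold change 6.10, SE 0.91, adjusted p = 0.00553). The droplet coat gene Plin4 stood at 93.2, 539 and 185 CPM in HFD+LYC livers, against 16.5, 18.9 and 12.6 CPM in control livers, with HFD+LYC replicate 2 highest (log2 fold change 4.09, SE 0.72, adjusted p = 0.012). Plin5, another coat protein, stood at 55.3, 82.6 and 70.7 CPM in HFD+LYC livers, against 32.2, 21.8 and 25.3 CPM in control livers (log2 fold change 1.40, SE 0.30, adjusted p = 0.0234). The other 4 handle stored triglyceride: the lipases Pnpla2 (log2 fold change 1.11), Lipe (1.20) and Mgll (1.29), and G0s2 (1.97), an inhibitor of Pnpla2. The list had 2 calls without control replicate 3, 3 without control replicate 1 or HFD+LYC replicate 3, and 4 without HFD+LYC replicate 1 or 2 or HFD replicate 2. Plin4 had adjusted p = 0.073 without control replicate 3, and Plin5 kept its call in 5 of 9 such fits (highest adjusted p 0.121).

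Of 41 genes of fatty acid oxidation and targets of the fat-sensing receptor PPARα, 8 rose and 0 fell, with a median of 0.59. Angptl4, a secreted inhibitor of lipoprotein lipase, stood at 448, 401 and 431 CPM in HFD+LYC livers, against 36.9, 138 and 49.9 CPM in control livers. Control replicate 2 was the highest control liver and still below every HFD+LYC liver (log2 fold change 2.51, SE 0.47, adjusted p = 0.0139). The peroxisomal thioesterase Acot3 stood at 20, 15.9 and 33 CPM in HFD+LYC livers and 2.07, 15.5 and 10.9 CPM in HFD livers, against 1.31, 1.38 and 0.381 CPM in control livers, and every HFD liver was also above control (log2 fold change 4.48, SE 0.72, adjusted p = 0.00742). The peroxisomal thiolase Acaa1b stood at 2692, 5790.3 and 3155 CPM in HFD+LYC livers and 1646, 2233 and 1864 CPM in HFD livers, against 1102, 540.2 and 743 CPM in control livers (log2 fold change 2.29, SE 0.47, adjusted p = 0.0194). Its relative Acaa1a had a log2 fold change of 1.82 and Pex11a, which divides peroxisomes, 1.82 (adjusted p = 0.0191 and 0.0159). The remaining 3 were Acot2 (2.28), Eci2 (1.35) and Crat (1.31). The list had 4 calls without HFD+LYC replicate 1 and 0 without control replicate 3. In that last fit Acot3, Angptl4 and Acaa1b had adjusted p = 0.0517, 0.0897 and 0.118, while Acaa1a and Pex11a had 0.117 and 0.0916.

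Cholesterol synthesis went the other way. Of 25 genes 0 rose and 4 fell, with a median of -0.95. Hmgcs1, which makes HMG-CoA, stood at 181, 177 and 266 CPM in HFD+LYC livers and 697, 509.7 and 872 CPM in HFD livers, against 1129, 762 and 419 CPM in control livers, and the HFD values lay within the control values (log2 fold change -1.89, SE 0.44, adjusted p = 0.0321). Sqle, squalene epoxidase, stood at 6.78, 2.99 and 11.3 CPM in HFD+LYC livers, against 64.7, 37.6 and 31 CPM in control livers (log2 fold change -2.65, SE 0.63, adjusted p = 0.0354). Mevalonate kinase, Mvk, stood at 8.4, 4.62 and 4.88 CPM in HFD+LYC livers, against 29.2, 21.2 and 11.9 CPM in control livers (log2 fold change -1.80, SE 0.44, adjusted p = 0.0396), and Msmo1, which removes sterol methyl groups, at 34.3, 41.6 and 61.7 CPM in HFD+LYC livers, against 191, 139 and 108 CPM in control livers (log2 fold change -1.67, SE 0.43, adjusted p = 0.044). In each of the 4, every HFD+LYC liver was below every control liver. The groups were apart in 699 of the 701 calls, so this adds little to the call itself. None of the 25 was called without control replicate 1 or 3 or without HFD+LYC replicate 1 or 2, while 1 was called without HFD replicate 1, 2 without HFD+LYC replicate 3 and 8 without HFD replicate 3. Over these fits the highest adjusted p of Hmgcs1 and Sqle was 0.125 and 0.119.

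Of 15 apolipoprotein and lipoprotein assembly genes 6.67% were called, against 5.54% of all genes tested, and Apoa4 alone rose. It stood at 312, 483 and 1689 CPM in HFD+LYC livers and 550.1, 1067 and 1597 CPM in HFD livers, against 162, 37.3 and 108 CPM in control livers, and the HFD values lay among the HFD+LYC values (log2 fold change 3.02, SE 0.74, adjusted p = 0.0395). Apoa4 kept its call in 2 of 9 fits without 1 library (highest adjusted p 0.16). None of 20 bile acid genes was called (median -0.28). The sterol exporters Abcg5 and Abcg8, which overlap each other in the annotation, were nearest to a call (adjusted p = 0.144 and 0.15). Abcg5 stood at 192, 1169.8 and 232 CPM in HFD+LYC livers, against 116, 212 and 113 CPM in control livers, and HFD+LYC replicate 2 was far above the other livers.

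In glucose metabolism and insulin response, 7 of 26 genes rose and 1 fell, with a median of 0.59. Pfkfb3, which makes the main activator of glycolysis, stood at 29.9, 37.6 and 54 CPM in HFD+LYC livers and 6.82, 10.1 and 5.73 CPM in HFD livers, against 6.7, 8.96 and 6.09 CPM in control livers, and the HFD and control values overlapped (log2 fold change 2.48, SE 0.33, adjusted p = 0.00341). Foxo1, a transcription factor switched off by insulin, stood at 45.8, 67.9 and 44.6 CPM in HFD+LYC livers, against 21.1, 21.9 and 16.9 CPM in control livers (log2 fold change 1.40, SE 0.26, adjusted p = 0.0137). Pfkl, the liver phosphofructokinase, stood at 43.6, 62.2 and 42.8 CPM in HFD+LYC livers, against 21.5, 17.8 and 19.4 CPM in control livers (log2 fold change 1.34, SE 0.25, adjusted p = 0.0137). Ppp1r3g, given above, and Ppp1r3c are both glycogen-targeting phosphatase subunits, and Ppp1r3c fell, at 21.2, 6.65 and 21.9 CPM in HFD+LYC livers, against 78.1, 126 and 82.5 CPM in control livers (log2 fold change -2.52, SE 0.45, adjusted p = 0.012). Further rises were those of Pfkfb1 (log2 fold change 1.66) and the glucose phosphate carrier Slc37a4 (1.12). The list had 4 rises and 1 fall without control replicate 1 or HFD+LYC replicate 1 or 2, and 1 of each without control replicate 3. In that last fit Foxo1 and Pfkl had adjusted p = 0.0897 and 0.0802, and Pfkfb3 and Ppp1r3c kept their calls without any single library.

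Amino acid breakdown and the urea cycle had 8 of 42 genes higher and 0 lower (median 0.18). Sds, which deaminates serine, stood at 605, 1979 and 689 CPM in HFD+LYC livers, against 142, 127 and 112 CPM in control livers. The second HFD+LYC liver was the highest and all 3 were above control (log2 fold change 3.10, SE 0.53, adjusted p = 0.00966; the locus overlaps Plbd2). Its relative Sdsl stood at 55.3, 66.7 and 29.4 CPM in HFD+LYC livers, against 12.5, 7.85 and 9.65 CPM in control livers (log2 fold change 2.33, SE 0.34, adjusted p = 0.00523). Asl, the urea cycle enzyme argininosuccinate lyase, stood at 1327, 1866 and 1472 CPM in HFD+LYC livers, against 334, 177 and 332 CPM in control livers (log2 fold change 2.47, SE 0.45, adjusted p = 0.0128). Got1, the cytosolic aspartate aminotransferase, stood at 118, 803 and 337 CPM in HFD+LYC livers, against 85.9, 59.5 and 58.1 CPM in control livers (log2 fold change 2.63, SE 0.57, adjusted p = 0.025). Hpd, of tyrosine breakdown, stood at 3787, 3673 and 3019.8 CPM in HFD+LYC livers, against 1469, 913 and 1189.7 CPM in control livers (log2 fold change 1.55, SE 0.39, adjusted p = 0.0405). The last 3 were Gpt2 (log2 fold change 1.33), Prodh (1.40) and Tha1 (1.37). The list had 5 calls without HFD replicate 1 or HFD+LYC replicate 3, 4 without HFD replicate 2 or HFD+LYC replicate 1, 3 without control replicate 1 or HFD+LYC replicate 2, and 1, Sdsl, without control replicate 3. In that last fit Sds, Asl and Got1 had adjusted p = 0.0694, 0.0694 and 0.127. Got1 was also lost without control replicate 1 (0.0643) and without HFD+LYC replicate 2 (0.07), and Hpd kept its call in 1 of 9 such fits.

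**Figure D4:**
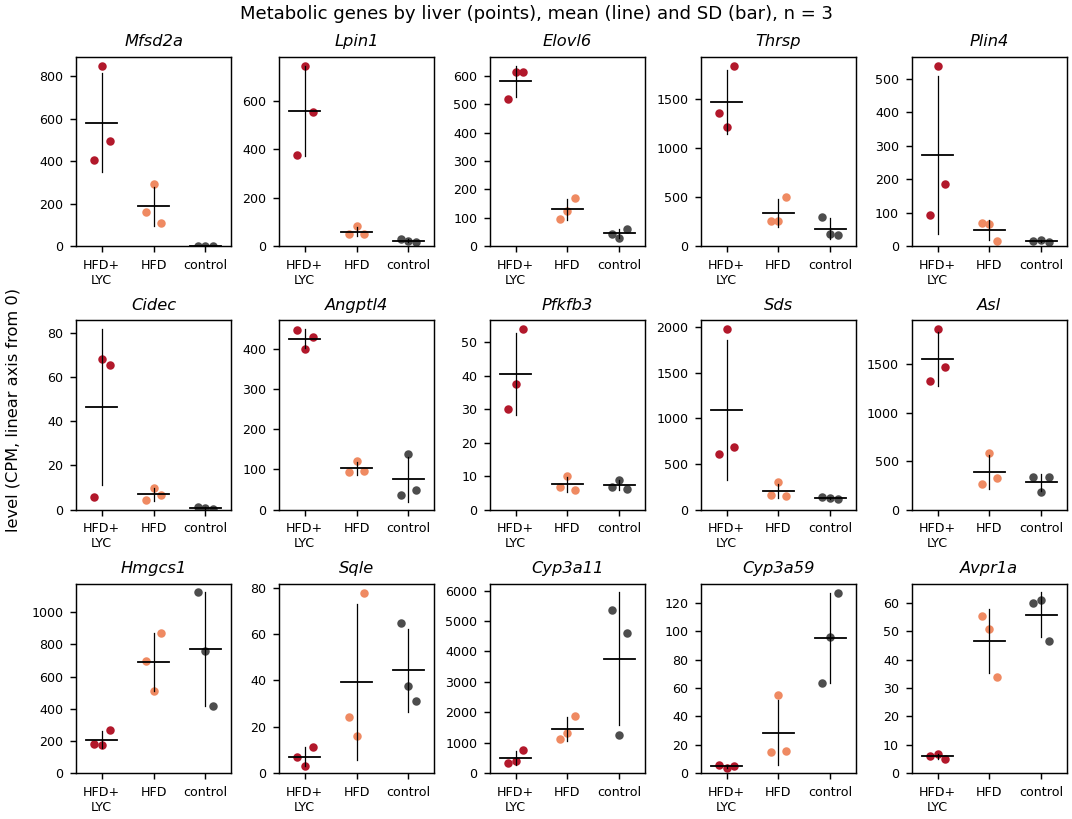
Level in CPM (vertical axes, linear from 0) of 15 metabolic genes in each liver of the HFD+LYC, HFD and control diets; points are livers, the line is the mean and the bar the SD (n = 3). Lpin1, Elovl6, Thrsp, Sds and Asl are higher in all 3 HFD+LYC livers than in any HFD or control liver, and Avpr1a and Cyp3a59 are lowest in HFD+LYC livers.

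Sex-biased liver genes follow growth hormone patterns. Of 18 genes known to be higher in female livers, 7 passed the filter on low counts, and 3 of these were called, all higher: Cyp2b10 and Acot3, given above, and Cyp17a1, a steroid hydroxylase. The filter keeps a gene that is well detected in 1 diet, so the 7 are not a fair sample of the 18. Cyp17a1 stood at 17.7, 22.3 and 32.7 CPM in HFD+LYC livers and 5.58, 37.8 and 20.2 CPM in HFD livers, against 1.18, 0.827 and 0.762 CPM in control livers, and every HFD liver was also above control (log2 fold change 4.69, SE 0.66, adjusted p = 0.00434). Cyp17a1 and Cyp2b10 kept their calls without any single library. None of 28 male-biased genes was called (median -0.82). Elovl3 was nearest, at 105, 123 and 207 CPM in HFD+LYC livers, against 683, 342 and 471 CPM in control livers (adjusted p = 0.0605), with no overlap. The 19 tested major urinary protein genes, whose near-identical copies share reads, had a median of -1.17 and no call. Their summed level was 93422, 23289 and 99102 CPM in HFD+LYC livers, against 134960.0, 116900.0 and 176070.0 CPM in control livers, so every HFD+LYC liver was below every control liver and replicate 2 was lowest.

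Among 32 cytochrome P450 and related xenobiotic genes 3 rose and 4 fell (median -0.32). Cyp3a11, a P450 that oxidizes steroids and drugs, stood at 330.3, 385 and 753 CPM in HFD+LYC livers and 1109, 1329 and 1872 CPM in HFD livers, against 5372, 1264 and 4615 CPM in control livers. Control replicate 2 was low, yet above every HFD+LYC liver (log2 fold change -2.94, SE 0.60, adjusted p = 0.0191). Its relative Cyp3a59 stood at 5.45, 3.39 and 5.24 CPM in HFD+LYC livers, against 63.4, 96.2 and 127 CPM in control livers (log2 fold change -4.34, SE 0.56, adjusted p = 0.00309). Cyp2c55 stood at 0.147, 0.136 and 0.975 CPM in HFD+LYC livers, against 19, 5.37 and 9.27 CPM in control livers (log2 fold change -4.63, SE 0.74, adjusted p = 0.00742), and Cyp2c69, with 2 reads over the HFD+LYC livers against 112 over the control livers, was the fourth fall (55-fold lower, 95% counting interval 14.9 to 460; adjusted p = 0.0139). Members of the Cyp3a and Cyp2c families resemble each other, so reads may be split between copies. The rises were Por and Cyp2b10, given above, and Nr1i2, the drug-sensing receptor PXR, at 339, 508 and 274 CPM in HFD+LYC livers, against 58.2, 110.1 and 77.1 CPM in control livers (log2 fold change 2.19, SE 0.40, adjusted p = 0.0134). Leaving out control replicate 3 left 2 rises and 2 falls in the list, and leaving out HFD+LYC replicate 2 left 3 and 2. Cyp3a11 lost its call without control replicate 1 or 3 or HFD+LYC replicate 1 or 2 (highest adjusted p 0.0909), Nr1i2 without control replicate 1 or 3 (0.0545 and 0.0787), and Cyp2c69 without control replicate 3 or HFD+LYC replicate 2 (0.073 and 0.0515).

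Genes that take up and cleave carotenoids such as lycopene were not called, and neither were the other 21 of the 24 tested genes of carotenoid and retinoid handling (median -0.34). The carotenoid oxygenase Bco2 stood at 32.9, 24.7 and 25.8 CPM in HFD+LYC livers, against 45.3, 51.1 and 40.6 CPM in control livers, without overlap (adjusted p = 0.116; the locus overlaps Il18). Bco1, which splits carotenes in the middle, stood at 7.52, 13.2 and 7.44 CPM in HFD+LYC livers, against 4.73, 7.17 and 4.95 CPM in control livers, also without overlap (adjusted p = 0.224). Of the 24 genes, 4 were higher and 4 lower without overlap, near the shares over all genes tested (14.3% higher, 13.7% lower). The uptake receptor Scarb1 stood at 97, 113 and 92.5 CPM in HFD+LYC livers, against 104, 113 and 98.4 CPM in control livers (log2 fold change -0.06, adjusted p = 0.921). Cyp26a1, which degrades retinoic acid, was at 10.3 ± 7.88 CPM in HFD+LYC livers and 36 ± 23.7 CPM in control livers (SD, n = 3; adjusted p = 0.0873). Of 39 glutathione and antioxidant genes driven by NRF2, 2.56% were called, against 5.54% of all genes tested: 1 fell and 0 rose (median -0.40). It was the glutathione transferase Gstm7, at 15.5, 3.8 and 21.2 CPM in HFD+LYC livers, against 65.5, 44.2 and 59.8 CPM in control livers (log2 fold change -2.06, SE 0.52, adjusted p = 0.0428), which kept its call in 3 of 9 fits without 1 library (highest adjusted p 0.137).

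Interferon-inducible genes were in part lower, with 6 of 35 falling, 1 rising and a median of -0.49. The GTPases Irgm2, Ifi47 and Gbp6, which act against intracellular microbes, all fell. Irgm2 stood at 11.5, 8.01 and 15.6 CPM in HFD+LYC livers and 32.5, 36.2 and 40.3 CPM in HFD livers, against 33.5, 38 and 43.7 CPM in control livers (log2 fold change -1.71, SE 0.29, adjusted p = 0.00907). Ifi47 stood at 10, 11.4 and 6.83 CPM in HFD+LYC livers and 32.5, 18 and 27.2 CPM in HFD livers, against 36.5, 27.6 and 35.8 CPM in control livers (log2 fold change -1.82, SE 0.31, adjusted p = 0.00965). Gbp6 stood at 11.2, 9.64 and 13.8 CPM in HFD+LYC livers and 50.8, 35.5 and 20.3 CPM in HFD livers, against 36.5, 66.3 and 43.7 CPM in control livers (log2 fold change -2.08, SE 0.37, adjusted p = 0.012). In these 3 genes every HFD+LYC liver was below every HFD and every control liver. The others that fell were Oasl1 (log2 fold change -1.33), Ifi44 (-2.44) and the nucleic acid sensor Zbp1 (-1.32). The rise was Ifit1, an RNA-binding antiviral protein, at 15, 19.8 and 28.2 CPM in HFD+LYC livers, against 5.78, 4.0 and 8.38 CPM in control livers (log2 fold change 1.79, SE 0.38, adjusted p = 0.0213). The list had 3 falls without HFD replicate 1 or 2 or HFD+LYC replicate 2 or 3, 2 without HFD+LYC replicate 1 and 1 without control replicate 3. In that last fit Irgm2 and Ifi47 had adjusted p = 0.0553 and 0.0552. Gbp6 lost its call without HFD+LYC replicate 1 (0.0528), and Ifit1 kept its call in 5 of 9 such fits. Of 34 acute phase and complement genes 2.94% were called, against 5.54% of all genes tested: none fell and 1 rose, the metallothionein Mt2. It stood at 10.5, 15.6 and 121 CPM in HFD+LYC livers, against 1.97, 2.76 and 5.21 CPM in control livers, with HFD+LYC replicate 3 far above the others (log2 fold change 3.88, SE 0.95, adjusted p = 0.0395; adjusted p = 0.106 without that liver).

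Markers of the cell types that a piece of liver can hold were counted in the same fit; in bulk tissue, fewer cells of a type and less RNA per cell cannot be told apart. None of 19 hepatocyte markers was called (median -0.34), and their summed level was 70334, 36883 and 119130.0 CPM in HFD+LYC livers, against 167130.0, 54158 and 122120.0 CPM in control livers. None of 25 Kupffer cell and macrophage markers was called (median -0.56), with summed levels of 463, 560.3 and 409 CPM in HFD+LYC and 684, 395 and 749 CPM in control livers. Among them Ctss, a lysosomal protease, stood at 8.11, 9.64 and 8.66 CPM in HFD+LYC livers, against 20.9, 11.3 and 26.3 CPM in control livers (adjusted p = 0.0855). Fitted changes were above 0 in 4 of the 25 and below 0 in 21. Clec4f, a defining marker of Kupffer cells, stood at 169, 231 and 91.8 CPM in HFD+LYC livers, against 115, 123 and 145 CPM in control livers, and the groups overlapped. Another defining marker, Vsig4, was lower without overlap, at 5.31, 1.36 and 4.75 CPM in HFD+LYC livers, against 15, 5.51 and 17.3 CPM in control livers (adjusted p = 0.108). The log2 fold changes of Timd4, Adgre1 and Csf1r were -0.32, 0.51 and -0.26. None of 21 stellate cell and fibroblast markers and none of 6 erythroid markers was called.

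Endothelial markers were the one cell type list with more than 3 calls: 5 of 20 rose and 0 fell (median 0.18). The share called was 25%, against 42.9% of the 7 tested adipocyte markers. Fitted changes were above 0 in 12 of the 20 and below 0 in 8. Stab1, a scavenger receptor of sinusoidal cells, stood at 211, 372 and 213 CPM in HFD+LYC livers, against 54.4, 88.9 and 89.6 CPM in control livers (log2 fold change 1.77, SE 0.40, adjusted p = 0.0292). Flt4, a receptor of vessel growth, stood at 51.1, 67.5 and 51 CPM in HFD+LYC livers, against 20, 22.2 and 24.8 CPM in control livers (log2 fold change 1.34, SE 0.24, adjusted p = 0.0128). The endothelial receptor gene Tie1 stood at 31.5, 39.5 and 32.1 CPM in HFD+LYC livers, against 13.5, 17.2 and 16.1 CPM in control livers (log2 fold change 1.14, SE 0.25, adjusted p = 0.0277). The groups did not overlap in these genes, as in 699 of the 701 calls. Eng, whose locus overlaps Fpgs, had a log2 fold change of 1.17 and Egfl7 of 1.15. The summed level of the list was 892, 1154 and 929.8 CPM in HFD+LYC livers, against 584, 552 and 689 CPM in control livers. Its defining markers Stab2, Lyve1, Clec4g and Kdr were not called. Of the 20, 0 were called without control replicate 1 or 3, 1 without HFD+LYC replicate 1 or 2, 2 without HFD+LYC replicate 3 and 3 without HFD replicate 2; the highest adjusted p of Flt4, Tie1 and Stab1 was 0.0653, 0.12 and 0.114.

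Of 11 cholangiocyte markers 2 fell and 0 rose. Spp1, or osteopontin, stood at 25.5, 32 and 41.9 CPM in HFD+LYC livers and 125, 157 and 166 CPM in HFD livers, against 144, 128 and 126 CPM in control livers, and the HFD and control values were far above those of HFD+LYC (log2 fold change -2.00, SE 0.30, adjusted p = 0.00569). Sox9, a transcription factor of bile duct cells, stood at 3.98, 1.9 and 3.29 CPM in HFD+LYC livers, against 16.8, 11.3 and 14.1 CPM in control livers (log2 fold change -2.20, SE 0.39, adjusted p = 0.0121; adjusted p = 0.0577 without control replicate 3). The defining markers Krt7, Krt19 and Epcam were near the detection limit and not called. Of 9 tested lymphocyte and neutrophil markers Cxcr2, a chemokine receptor, rose, at 8.7, 23.8 and 6.58 CPM in HFD+LYC livers, against 0.394, 0.551 and 1.27 CPM in control livers (log2 fold change 4.10, SE 0.65, adjusted p = 0.00742). The neutrophil gene S100a8 was at 1.18, 3.4 and 0.853 CPM in HFD+LYC livers, against 1.84, 0.827 and 3.56 CPM in control livers. Of 11 adipocyte markers 7 passed the filter on low counts, which keeps a gene that is well detected in 1 diet. Among the 7, 3 rose: Cidec, given above, Slc2a4 and Cfd. Fitted changes were above 0 in 6 of the 7 and below 0 in 1. The summed level of the list went the other way, at 831, 605 and 1773 CPM in HFD+LYC livers, against 6252, 1949 and 3769 CPM in control livers. The insulin-responsive glucose carrier Slc2a4 stood at 3.24, 2.04 and 3.17 CPM in HFD+LYC livers, against 0, 0.138 and 0 CPM in control livers (adjusted p = 0.0167). The secreted protease Cfd stood at 3.1, 55.8 and 145 CPM in HFD+LYC livers, against 4.33, 1.79 and 1.14 CPM in control livers (log2 fold change 4.80, SE 1.05, adjusted p = 0.025). Cfd overlapped, since HFD+LYC replicate 1 lay within the control values. The defining fat cell genes Adipoq and Plin1 had 0 reads in all control livers and in HFD+LYC replicates 1 and 2, and stood at 0.975 and 0.366 CPM in HFD+LYC replicate 3. Without that liver Cfd had adjusted p = 0.0554, and both genes lost their calls without control replicate 1 or 3 (highest adjusted p 0.0969 for Slc2a4 and 0.123 for Cfd). The pancreatic gene Prss2 and the muscle gene Ckm had 0 reads in all 6 livers, and neither of 2 tested markers of pancreas and gut and neither of 2 of skeletal muscle was called. Any part of these markers in the results above was not tested.

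Position in the liver lobule was followed by 2 lists. Of 22 pericentral genes 4.5% were called, against 5.54% of all genes tested, and Avpr1a was the only one. This vasopressin receptor gene stood at 6.04, 6.65 and 4.88 CPM in HFD+LYC livers and 55.4, 50.7 and 34 CPM in HFD livers, against 60, 60.9 and 46.7 CPM in control livers, so all 3 HFD+LYC livers were far below every HFD and control liver (log2 fold change -3.25, SE 0.30, adjusted p = 0.000341; located on chromosome 10 between 122448499 and 122453453). The list's median was -0.56. Of 20 periportal genes Sds and Asl rose, and Cdh1, or E-cadherin, and the protease Ctsc fell (median -0.12, against 0.15 without control replicate 1 and 0.0059 without control replicate 3). Cdh1 stood at 8.25, 2.44 and 6.7 CPM in HFD+LYC livers, against 52.7, 18.3 and 42.1 CPM in control livers (log2 fold change -2.70, SE 0.56, adjusted p = 0.0208). Ctsc stood at 22, 11 and 22.8 CPM in HFD+LYC livers, against 49, 32.4 and 99.3 CPM in control livers (log2 fold change -1.70, SE 0.44, adjusted p = 0.046). Neither Cdh1 nor Ctsc was called without control replicate 3 (adjusted p = 0.0806 and 0.206), and Avpr1a kept its call without any single library.

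**Figure D5:**
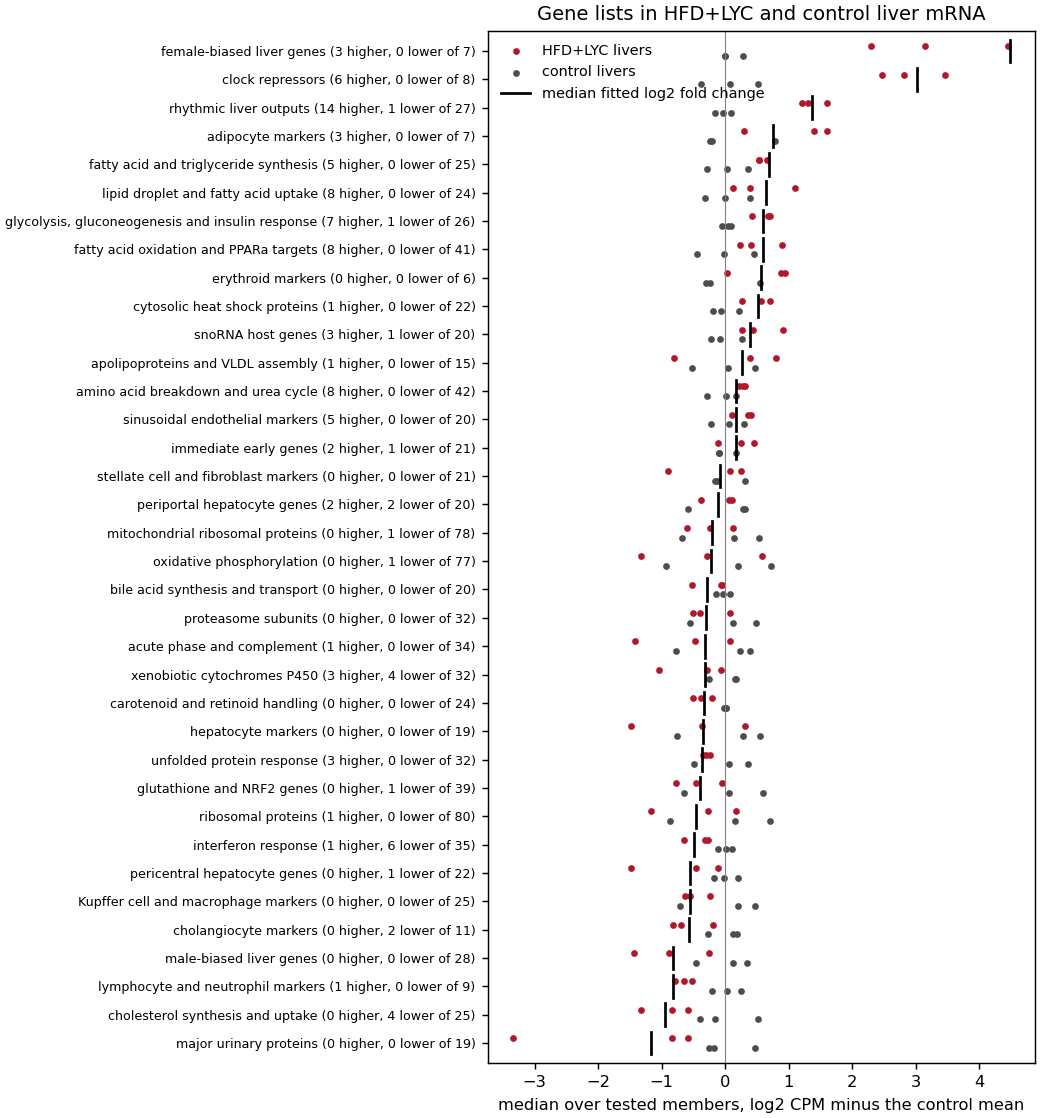
Gene lists with at least 5 tested members, 36 in all, ordered by the median fitted log2 fold change of HFD+LYC over control (black bar); each point is 1 liver, the median over the members of log2 CPM minus the control mean in the colours of the legend. Points of clock repressors and rhythmic outputs are higher in all 3 HFD+LYC livers than in any control liver; in the oxidative phosphorylation list the lowest HFD+LYC and the lowest control point are both replicate 2.

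The large complexes of protein synthesis, energy metabolism and protein breakdown showed few calls. Of 80 cytosolic ribosomal protein genes 1 rose (median -0.46), Rpl32l, a copy of Rpl32 within the Map7 locus, whose reads cannot be assigned with certainty. Of 78 mitochondrial ribosomal protein genes 1 fell (median -0.21), Mrps2, at 14.9, 12.2 and 23.2 CPM in HFD+LYC livers, against 40.6, 29.5 and 42.7 CPM in control livers (log2 fold change -1.16, SE 0.30, adjusted p = 0.0441). Of 77 oxidative phosphorylation genes 1 fell (median -0.22), Atp5s, linked to ATP synthase, at 2.95, 2.31 and 4.51 CPM in HFD+LYC livers, against 9.85, 13.8 and 9.14 CPM in control livers (log2 fold change -1.74, SE 0.35, adjusted p = 0.0174). None of 32 proteasome genes was called (median -0.30). Summed levels of the oxidative phosphorylation list were 9775, 5066 and 17680.0 CPM in HFD+LYC and 18508, 6113 and 13096 CPM in control livers, and both replicates 2 were low. Without 1 library its median ran from -0.86 (without HFD+LYC replicate 3) to 0.13 (without control replicate 1), and it was also above 0, at 0.08, without HFD+LYC replicate 2. The median of the cytosolic ribosomal proteins ran from -0.81 (without HFD+LYC replicate 3) to -0.07 (without control replicate 1). That of the mitochondrial ribosomal proteins ran from -0.45 (without control replicate 2) to 0.08 (without control replicate 1), and that of the proteasome genes from -0.54 to -0.12 on leaving out the same libraries. Without HFD+LYC replicate 2, Mrps2 and Atp5s lost their calls (adjusted p = 0.141 and 0.0588).

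Among the 10 most abundant called genes, Hpd, Acaa1b, Cyp3a11, Asl, Thrsp and Lpin2 are given above. Pzp, a secreted protease inhibitor of the macroglobulin family, stood at 727, 627 and 1121 CPM in HFD+LYC livers, against 2991, 2636 and 3054 CPM in control livers (log2 fold change -1.81, SE 0.41, adjusted p = 0.0298). Its relative Mug2 stood at 189, 541 and 288 CPM in HFD+LYC livers, against 1638, 2276 and 1196 CPM in control livers (log2 fold change -2.33, SE 0.51, adjusted p = 0.0261). Aox3, an aldehyde oxidase, stood at 384, 369 and 369 CPM in HFD+LYC livers, against 988, 1594 and 916 CPM in control livers (log2 fold change -1.64, SE 0.42, adjusted p = 0.0437). Cnbd2 stood at 2822, 3421 and 2022 CPM in HFD+LYC livers, against 154, 582 and 199 CPM in control livers (log2 fold change 3.15, SE 0.78, adjusted p = 0.0405), but its locus overlaps Scand1 and the reads may belong to either gene. These 4 kept their calls in 2 to 5 of 9 fits without 1 library, with a highest adjusted p of 0.108 to 0.179.

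The HFD livers share the control libraries with this comparison, so the 2 contrasts are only set side by side. In the same fit, HFD against control livers gave 2 genes higher (0.0158%), Mfsd2a and Dbp, and 0 lower. An unadjusted p under 0.05 in edgeR's quasi-likelihood test was reached by 358 of 12,664 genes, a smaller share than 0.05 itself. In HFD+LYC against control livers 3024 genes reached it. HFD+LYC against HFD livers gave 252 called higher (1.99%) and 116 called lower (0.916%). For Mfsd2a, the log2 fold change was 6.32 in HFD against control (adjusted p = 0.00145) and 1.64 in HFD+LYC against HFD livers (adjusted p = 0.0667). For Ciart these were 1.38 (adjusted p = 1) and 6.47 (adjusted p = 0.00146). Avpr1a had -0.26 (adjusted p = 1) and -2.99 (adjusted p = 0.00146). Apoa4 had 3.39 (adjusted p = 0.567) and -0.37 (adjusted p = 0.754). Cyp17a1 had 4.50 (adjusted p = 0.0684) and 0.19 (adjusted p = 0.833). Medians of the lists in HFD against control were 0.59 for the clock repressors, 0.87 for fatty acid and triglyceride synthesis and -0.16 for cholesterol synthesis.

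Ribosome-bound RNA of the same livers is a second readout of these animals, not a replicate. Its HFD+LYC libraries stood apart, with reads from 8940 to 10,037 genes, against 14,072 to 14,333 in control RNC libraries. A separate fit of the 9 RNC libraries called 3072 of 11,660 genes (26.3%), 1076 higher (9.23%) and 1996 lower (17.1%), in HFD+LYC against control. The rises were 658, 576 and 603 without control RNC replicate 1, 2 and 3, and the falls 3097 without HFD+LYC replicate 2. There, Dbp had a log2 fold change of 6.24 (adjusted p = 0.000445), Usp2 7.85 (5.18e-05), Per3 5.62 (0.000294), Mfsd2a 6.64 (2.35e-05), Lpin1 5.68 (4.29e-05), Elovl6 4.46 (5.18e-05) and Cyp3a11 -3.58 (0.000272). Npas2 had no read in any HFD+LYC RNC library and 8.02, 5.17 and 8.07 CPM in control RNC libraries (adjusted p = 0.00429). Other clock genes differed in call from total mRNA. Of the 3 activators 1 was called lower in RNC, against 3 in total mRNA. Of 7 tested repressors 4 were called higher, against 6 of 8. Of the 4 D-box factors 2 were called higher and 1 lower, against 2 and 0. Clock, called in total mRNA, was not called in RNC (log2 fold change 0.52, adjusted p = 0.211). None of this was tested as a difference. The median change in RNC was -4.51 for cytosolic and -4.93 for mitochondrial ribosomal protein genes, with 79 of 80 and 75 of 78 called lower. Any part of the library difference in these values was not tested.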

How the data were processed

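Poly(A) RNA of 3 livers per diet was sequenced on an Illumina instrument from total RNA, per the labels. The submitters' processing notes name bcl2fastq and mm10. Reads were mapped to RefSeq RNA, per the series' design text; the sources used here name no aligner. The authors deposited, per the file headers, a read count and an RPKM value (reads per kilobase of transcript and library size) for 24,539 genes, each over its merged splice variants. The counts were used for all tests, and the deposited RPKM values were not. Reads in the library total of the deposited RPKM but in no listed gene were 1.25% to 7.91% in HFD+LYC, 1.40% to 19.7% in HFD and 4.39% to 23.0% in control libraries. The 23.0% was that of control replicate 2, against 4.39% and 4.83% in control replicates 1 and 3. Of the gene symbols, 24,462 matched RefSeq on GRCm38.p6, the source of coordinates.

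Genes were kept with filterByExpr (minimum count 10, minimum total 15) and fitted over the 9 mRNA libraries with edgeR 4.0.16 in R 4.3.3 (TMM, robust quasi-likelihood test, two-sided, residual df 6, biological coefficient of variation 0.352), and calls needed a Benjamini-Hochberg adjusted p under 0.05. The fit over 9 libraries shares one spread over the 3 diets. RNC libraries were fitted apart. Total mRNA replicates of the HFD+LYC and of the control diet differed by more than counting error (chi-square per gene 46.9 to 205), so none of these was a copy. HFD and RNC libraries were not compared in this way. The procedure was also run on simulated counts, drawn independently from the mean levels and the fitted spread. Such counts cannot show a dependence on single libraries or a structure shared by replicates. Alternatives were DESeq2 1.42.0, limma-voom (limma 3.58.1), other scaling and filters, a replicate block, the 6 libraries alone and each library left out.

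The comparison, the 41 gene lists and the rule for naming genes were chosen with earlier results of these data known. The rule named the 15 largest rises and falls among non-overlapping calls averaging 1 CPM or more, the clock genes, up to 4 called members per list and direction with the smallest p (or the 2 nearest where none was called), Bco1, Bco2, Scarb1 and the 10 most abundant calls. The other called members of a list were added after their values were seen. With 3 livers a group the smallest p of an exact two-sided test of 1 gene would be 0.1, so single genes rest on the model across genes. Ranges and floors cover counting error only, since reads are not independent molecules. Counts of overlapping or near-identical genes are uncertain. Some genes of the lists are not reported here.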

Additional observations from a re-analysis of the deposited data

How the results depend on the processing

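The numbers of HFD+LYC against control mRNA calls (419 higher, 282 lower) were 927 and 701 with DESeq2, 357 and 221 with limma-voom, 433 and 279 with DESeq2 size factors in edgeR, 441 and 310 without a filter on low counts, 349 and 234 among genes averaging 5 CPM or more, and 352 and 177 on the 6 compared libraries alone. With each library left out in turn they were 59 to 580 higher and 32 to 387 lower, lowest without control replicate 3. In all 16 alternatives 50 rises and 23 falls kept their calls. Of 107 named genes that were called, 33 kept the call in all 9 fits without 1 library.

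Same-numbered control and HFD+LYC libraries had residual correlations of -0.0822 to 0.417 across genes, with 2 of 3 over 0.1. Differently numbered ones had -0.53 to 0.468, with 1 of 6 over 0.1. These values do not settle whether same-numbered libraries share a structure, and the main fit did not pair them. With a replicate block 812 mRNA genes were higher and 613 lower. The RNC calls (1076 higher, 1996 lower) were 868 and 1855 with the replicate block, 1197 and 1088 among genes of at least 5 CPM, and 794 and 1238 on the 6 libraries alone. Without 1 library they were 576 to 1508 higher and 1527 to 3097 lower.

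Signs were compared in the 139 named genes alone, where 3 of those without a call changed sign in at least 1 alternative and none of the 107 called did. Nfil3 (log2 fold change 0.02 with all libraries) had -0.019 with the replicate block and -0.31 to 0.33 without 1 library, below 0 without control replicate 1 (-0.31), HFD+LYC replicate 1 (-0.28) or HFD+LYC replicate 3 (-0.06). Hlf (0.16) had -0.017 to 0.43, below 0 without HFD+LYC replicate 1. Fabp2 (0.48) had -0.71 to 0.99, below 0 without HFD+LYC replicate 3. The cause was not tested. Depth limited genes under about 0.5 CPM, where 3 reads or fewer were counted per library.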

Other observations

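In HFD+LYC against control livers, 4.5% of 22 cytosolic heat shock and chaperone genes were called (median 0.52), against 5.54% of all genes tested. The 1 called gene was Fkbp5, a co-chaperone of the glucocorticoid receptor. It stood at 178, 117 and 139 CPM in HFD+LYC livers and 15.2, 17.4 and 12.9 CPM in HFD livers, against 7.22, 9.78 and 14.2 CPM in control livers, and kept its call in edgeR's quasi-likelihood test without any single library (log2 fold change 3.79, SE 0.34, adjusted p = 0.000341; located on chromosome 17 between 28398753 and 28486149). Of 32 unfolded protein response genes 3 rose and 0 fell, with a median of -0.37. Cebpb, a transcription factor of the acute response and of gluconeogenesis, stood at 488, 553 and 529 CPM in HFD+LYC livers, against 65.1, 98 and 54.5 CPM in control livers (log2 fold change 2.85, SE 0.35, adjusted p = 0.00297). Herpud1, which serves the breakdown of endoplasmic reticulum proteins, stood at 404, 818 and 521 CPM in HFD+LYC livers, against 112, 133 and 139 CPM in control livers (log2 fold change 2.18, SE 0.36, adjusted p = 0.0088). Ddit3, or CHOP, had a log2 fold change of 1.53 (adjusted p = 0.0466), and its locus overlaps Mbd6. On leaving out control replicate 3, Herpud1 and Ddit3 had adjusted p = 0.0573 and 0.197.

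Of 21 immediate early genes Klf4 and Ier3 rose and Cyr61 fell. Klf4, a zinc finger factor, stood at 2.8, 7.06 and 5.24 CPM in HFD+LYC livers, against 0.919, 0.827 and 0.762 CPM in control livers (adjusted p = 0.0213). Ier3 stood at 4.57, 7.88 and 5.49 CPM in HFD+LYC livers, against 0.919, 2.07 and 0.889 CPM in control livers (adjusted p = 0.0236). Cyr61 stood at 8.99, 7.06 and 10.1 CPM in HFD+LYC livers, against 20.1, 34 and 12.7 CPM in control livers (adjusted p = 0.0498) and kept its call in 1 of 9 fits without 1 library. Of 20 host genes of small nucleolar RNAs 3 rose and 1 fell, with a median of 0.39. Snhg3 stood at 56.8, 80.4 and 57.8 CPM in HFD+LYC livers, against 10.8, 21.9 and 14 CPM in control livers (log2 fold change 2.06, SE 0.32, adjusted p = 0.00658). Snhg20 stood at 158, 139 and 102 CPM in HFD+LYC livers, against 18.3, 48.4 and 26.4 CPM in control livers (log2 fold change 2.1, SE 0.48, adjusted p = 0.032), with no overlap in either. The third rise was 1810032O08Rik (log2 fold change 1.42, adjusted p = 0.0375), and the fall was Snhg14 (-1.73, adjusted p = 0.0462), a long transcript that overlaps Ube3a and Snrpn. None of the 4 host genes was called without control replicate 3, and neither Klf4 nor Ier3 was (adjusted p = 0.113 and 0.121).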
